A study of Mus musculus with 6 samples.

Results

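The genes examined here were 5 connexins, Gja1, Gjb2, Gjb5, Gjb6 and Gjc1, and the related channel gene Panx1. Every non-control probe carrying one of these gene names was taken, which gave 6 probes, 1 for each gene, among the 36163 gene names and 55681 probes of the array. The populations compared were LSC GFP+ cells and LSC GFP- cells, both sorted by FACS from the prostate of 6-day-old male Tg 11.5kb-GFP mice of the FVB/N strain, with 3 independent samples of each. LSC cells are the fraction that lacks the lineage markers Ter119, CD31 and CD45 (Lin-) and carries Sca-1 and CD49f, and both populations come from untreated mice that carry the transgene. In this transgene, a fragment of the Ship1 gene containing the s-SHIP promoter drives GFP, which also marks a subset of vascular smooth muscle cells in these mice. Whether a sample pooled several animals is not given in the sources used here, so the spread between samples may be biological or technical.

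Connexins are membrane proteins that assemble into hemichannels, and hemichannels of neighbouring cells dock to form gap junctions, through which ions, second messengers and small metabolites pass directly from cell to cell. The subunits are expressed in tissue-specific combinations, and epithelia usually carry several of them. Gja1 encodes Cx43, the most widely expressed connexin, found in basal and myoepithelial cells as well as in stroma and muscle. Gjb2 (Cx26) and Gjb6 (Cx30) are epithelial connexins best known from the inner ear and skin, Gjb5 is a connexin of stratified epithelia, and Gjc1 (Cx45) is known from smooth muscle and the conduction system of the heart. Panx1 is not a connexin but forms membrane channels of a similar architecture that release ATP from cells.

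On these arrays Gja1 was higher in LSC GFP+ than in LSC GFP- cells, 2.12-fold by mean signal (95% confidence interval 1.54 to 2.92, n = 3 per population). This difference passed the unadjusted threshold but not the adjusted one (limma, adjusted p = 0.129). Panx1 was 1.33-fold higher by mean signal with populations that just failed to overlap, which did not pass the test without pairing of the samples. The other 3 connexins that could be tested, Gjb2, Gjb6 and Gjc1, showed differences of at most 0.19 on the log2 scale and overlapping populations. Gjb5 was not measured above background in most samples.

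The upstream sequences of 3 of these genes are shown, chosen by their expression differences. They are those of the gene that differed most (Gja1), of one with a smaller difference (Panx1) and of one whose populations overlapped (Gjb2). Each is the 250 bases before the RefSeq transcription start in GRCm38.p6, written 5′ to 3′ on the strand of the gene, from chr10:56377050-56377299 on the plus strand for Gja1, chr9:15045479-15045728 on the minus strand for Panx1 and chr14:57104703-57104952 on the minus strand for Gjb2. Capitals mark an AP-1 motif in Gja1 and GC boxes in Gjb2.
Gja1: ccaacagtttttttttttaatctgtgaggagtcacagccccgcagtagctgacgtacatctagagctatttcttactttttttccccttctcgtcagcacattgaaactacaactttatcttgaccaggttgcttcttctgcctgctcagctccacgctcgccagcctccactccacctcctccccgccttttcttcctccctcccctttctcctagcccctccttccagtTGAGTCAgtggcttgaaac
Panx1: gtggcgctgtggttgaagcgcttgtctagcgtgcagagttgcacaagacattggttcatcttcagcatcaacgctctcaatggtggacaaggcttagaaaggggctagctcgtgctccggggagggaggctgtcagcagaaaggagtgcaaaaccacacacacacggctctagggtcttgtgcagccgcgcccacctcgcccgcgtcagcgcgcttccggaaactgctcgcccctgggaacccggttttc
Gjb2: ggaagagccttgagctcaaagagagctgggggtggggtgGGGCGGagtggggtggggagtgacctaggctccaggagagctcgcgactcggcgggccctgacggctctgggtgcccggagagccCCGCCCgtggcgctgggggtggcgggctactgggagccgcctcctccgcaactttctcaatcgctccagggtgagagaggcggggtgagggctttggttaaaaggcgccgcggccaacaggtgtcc
The motifs searched, on both strands, were the AP-1 motif TGANTCA, the GC box GGGCGG, the TCF/LEF motif CTTTGAT and the TATA box TATAAA. Gja1 held 1 AP-1 motif, which began 19 bases before the start. In the Gjb2 sequence, GC boxes began 211 and 126 bases before the start, the second of them on the opposite strand. None of the motifs was found in the Panx1 and Gjb6 sequences, and Gjb5 held 1 TATA box motif, 243 bases before its start. Over the 32851 promoter sequences of the same length in the RefSeq table, 6.75% held the AP-1 motif, 32.7% the GC box, 3.21% the TCF/LEF motif and 12.4% the TATA box. The sequences also differed in base composition, with a GC content of 50% in Gja1, 59.6% in Panx1 and 69.2% in Gjb2, against a median of 52.4% over all. A match to these letters describes the window only and does not show that a factor binds there. Whether motifs or base composition relate to the expression differences was not tested. The table held 5 of the 6 genes, without Gjc1.

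Signals were measured on 6 one-colour arrays of 1 slide and 1 scan, so that slide and scan were shared by both populations. Between 36657 and 42127 of the 55681 probes were well above background on an array. The correlation between arrays over the 37008 tested probes lay between 0.961 and 0.985. All values below are log2 signals relative to the 75th percentile of their array, where 0 is the signal that 75% of probe spots did not exceed. Of the 37008 probes tested, 2925 (7.90%) passed an unadjusted p of 0.05, 1250 (3.38%) being higher and 1675 (4.53%) lower in LSC GFP+ cells, and 1 passed 0.05 after Benjamini-Hochberg adjustment. Under scaling by the array median, the share of lower among called probes went from 57.3% to 46.9%. Because bulk RNA of sorted cells was measured, fewer cells of a type and less RNA per cell cannot be told apart.

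Among the defining markers of the sorted cells, the CD49f gene Itga6 and the Sca-1 gene Ly6a were well above background on all 6 arrays, as were the basal keratin genes Krt5 and Krt14. The endothelial gene Pecam1 (CD31) and the leukocyte gene Ptprc (CD45), both used to remove lineage cells, were also above background on all 6 arrays, and neither passed the test between populations. The fibroblast collagen Col1a1 and the smooth muscle actin Acta2 were above background throughout and lower in LSC GFP+ cells, by 2.18 and 2.13 on the log2 scale (limma, adjusted p = 0.107 and adjusted p = 0.14, both past the unadjusted threshold).

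The Gja1 probe lies in mm9 at chr10:56109814-56109873 on the plus strand and was annotated to the Gja1 transcript. Its log2 signal was 2.002, 2.17 and 2.36 in LSC GFP+ replicates 1 to 3, and 1.12, 0.93 and 1.24 in LSC GFP- replicates 1 to 3. All 3 LSC GFP+ samples thus lay above all 3 LSC GFP- samples, and the gap between the populations was wider than the range within either. The 2 means were 2.18 ± 0.18 (SD, n = 3) for LSC GFP+ and 1.09 ± 0.16 (SD, n = 3) for LSC GFP-, a log2 difference of 1.08 (SE 0.20, 95% confidence interval 0.62 to 1.54). It passed the unadjusted test in limma (unadjusted p = 0.000665) and did not pass after adjustment over all tested probes (adjusted p = 0.129). On the linear scale the processed intensity ranged from 1599 to 2237 in LSC GFP+ and from 774.7 to 996.1 in LSC GFP- samples.

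Because samples of the same replicate number deviated together, the differences within pairs were also examined. For Gja1 they were 0.89, 1.25 and 1.11 in pairs 1 to 3, each of them higher in LSC GFP+. In the limma fit that kept replicate number as a block the unadjusted p was 0.000665, the same as without it, and the adjusted p was 0.0782. That fit called 14.8% of all tested probes at the unadjusted threshold, against 7.90% without the block. Gja1 stayed past the unadjusted threshold in all 16 alternative settings, with differences between 0.99 and 1.17 and adjusted p values between 0.0729 and 0.486.

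**Figure D1:**
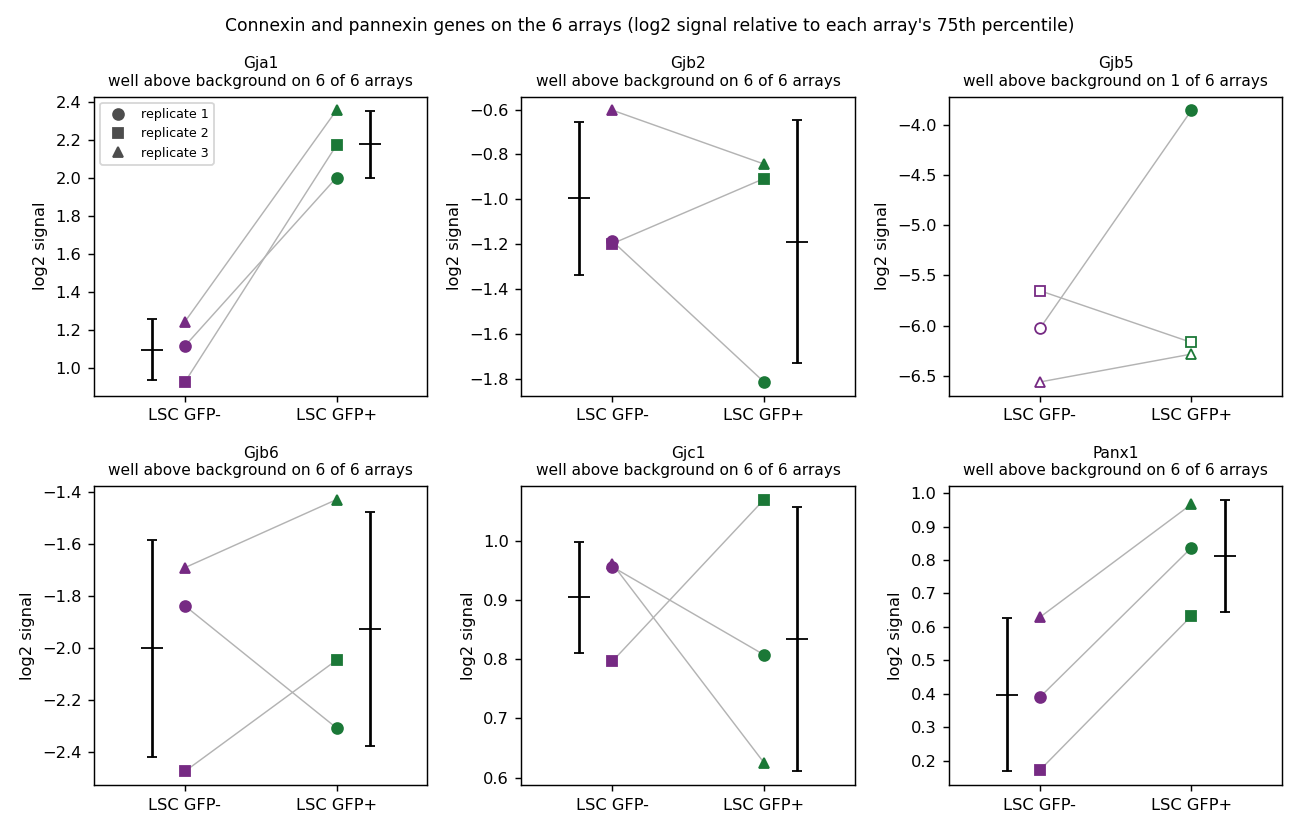
Log2 signal relative to the 75th percentile of the array (vertical axes) for each gene in LSC GFP- and LSC GFP+ samples. The axes differ in range between panels. Grey lines join samples of the same replicate number. Symbols are filled for arrays well above background and open for those not. Mean ± SD (n = 3) is drawn in black, except for Gjb5. The 3 lines of Gja1 and of Panx1 all run upwards and the populations do not overlap, the lines of Gjb2, Gjb6 and Gjc1 cross or diverge, and Gjb5 has 1 filled symbol.

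The Gja1 probe was printed 10 times on each array, which gives a measure of the technical error within an array. After removal of outlier spots, 10, 9 and 10 spots remained in LSC GFP+ replicates 1 to 3 and 8, 10 and 10 in LSC GFP- replicates 1 to 3. The SD between these spots was 0.04 to 0.09 on the log2 scale, below the SD between samples of either population. The lowest single spot in any LSC GFP+ sample, at 1.83, exceeded the highest single spot in any LSC GFP- sample, at 1.29. These spots measure the same labelled RNA and were averaged before the test.

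**Figure D2:**
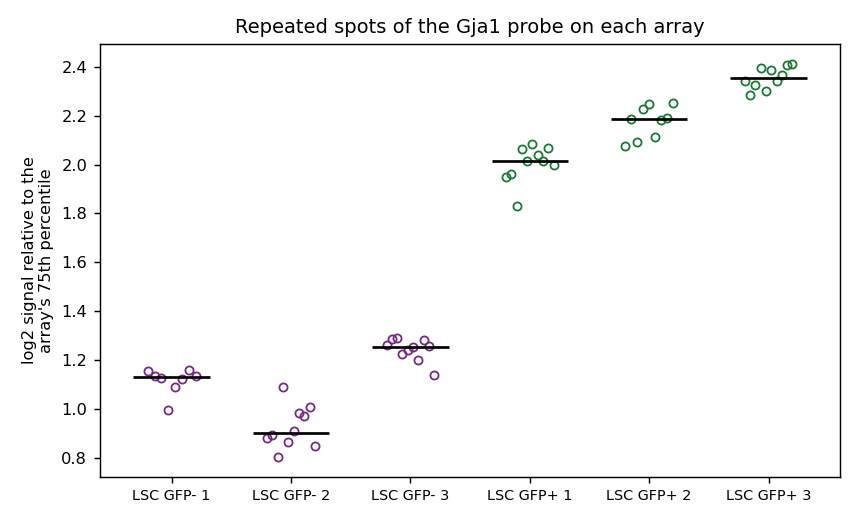
Log2 signal (vertical axis) of every kept spot of the Gja1 probe on each of the 6 arrays (horizontal axis), with the median of an array as a black line. Spots of the 3 LSC GFP+ arrays lie between 1.83 and 2.41 and those of the 3 LSC GFP- arrays between 0.80 and 1.29.

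The genes whose signals followed Gja1 most closely were taken from the 13286 named genes well above background on all 6 arrays and outside the gene lists used here, by the root mean square distance after subtraction of each gene's mean. They were Ifitm3, an interferon-induced membrane protein, at a distance of 0.061, Kitl, the ligand of the receptor Kit, at 0.082, and Arhgef3, a guanine nucleotide exchange factor for small GTPases, at 0.088. Their log2 differences were 1.09, 1.17 and 1.002, near the 1.08 of Gja1. Since they were chosen for this likeness over the same 6 arrays, these differences describe the choice and were given no test.

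**Figure D3:**
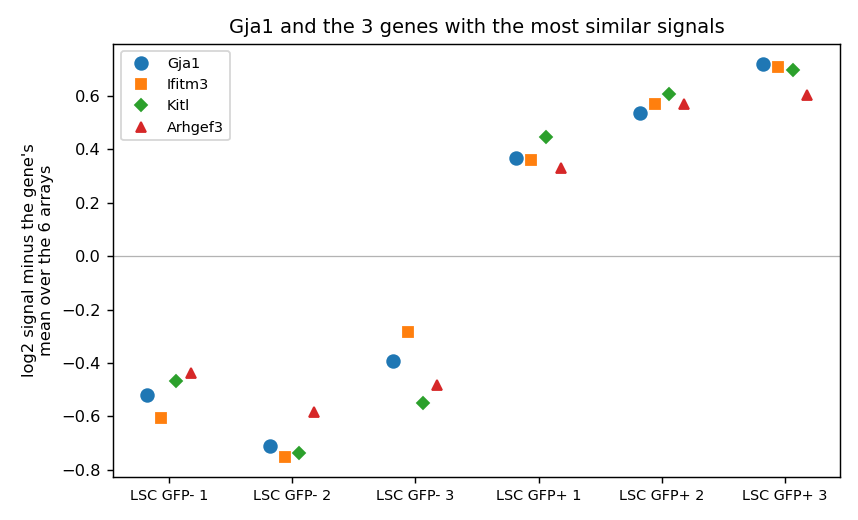
Log2 signal minus the mean of the gene over the 6 arrays (vertical axis) for Gja1, Ifitm3, Kitl and Arhgef3 on each array (horizontal axis). All 4 genes are below 0 in the 3 LSC GFP- and above 0 in the 3 LSC GFP+ samples, and all 4 have their lowest value in LSC GFP- replicate 2.

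The Panx1 probe lies in mm9 at chr9:14810250-14810309 on the minus strand. Its log2 signal was 0.84, 0.63 and 0.97 in LSC GFP+ replicates 1 to 3, and 0.39, 0.17 and 0.63 in LSC GFP- replicates 1 to 3. The populations did not overlap, but only by a narrow margin, as the lowest LSC GFP+ sample was at 0.633 and the highest LSC GFP- sample at 0.629. Means were 0.81 ± 0.17 (SD, n = 3) and 0.40 ± 0.23 (SD, n = 3), a log2 difference of 0.42 (SE 0.21, 95% confidence interval -0.07 to 0.90). This did not pass the test in limma (unadjusted p = 0.0833, adjusted p = 0.738), although with normexp background correction the unadjusted p was 0.0487. Within pairs the differences were 0.45, 0.46 and 0.34, a narrower spread than that between samples of a population. Blocked on the replicate number, Panx1 passed the unadjusted threshold (unadjusted p = 0.0243) but not the adjusted one (adjusted p = 0.258), in a fit in which 14.8% of all tested probes passed the unadjusted threshold.

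Gjb2 and Gjb6 are consecutive genes on mouse chromosome 14, next to Gja3. The Gjb2 probe, in mm9 at chr14:57717629-57717688 on the minus strand, gave log2 signals of -1.81, -0.91 and -0.84 in LSC GFP+ replicates 1 to 3, and of -1.19, -1.20 and -0.60 in LSC GFP- replicates 1 to 3. Both the highest and the second lowest of these 6 values belong to LSC GFP- samples, so the populations overlapped. The log2 difference of Gjb2 was -0.19 (95% confidence interval -0.92 to 0.54, limma, unadjusted p = 0.559, adjusted p = 0.996), with pair differences of -0.63, 0.29 and -0.24. Without LSC GFP+ replicate 1, which had the lowest signal, the difference was 0.12.

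The Gjb6 probe lies at chr14:57742226-57742285 on the minus strand and gave log2 signals of -2.31, -2.05 and -1.43 in LSC GFP+ replicates 1 to 3, and of -1.84, -2.47 and -1.69 in LSC GFP- replicates 1 to 3. The populations overlapped, with a log2 difference of 0.07 (95% confidence interval -0.64 to 0.78, limma, unadjusted p = 0.817). In pair 1 Gjb6 was lower in LSC GFP+ cells, by a log2 difference of -0.47, whereas pairs 2 and 3 gave 0.43 and 0.26. In pair 1 the LSC GFP+ sample was lower for both genes and in pair 2 it was higher for both, while pair 3 gave opposite signs.

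The Gjc1 probe, in mm9 at chr11:102661010-102661069 on the minus strand, gave log2 signals of 0.81, 1.07 and 0.63 in LSC GFP+ replicates 1 to 3, and of 0.96, 0.80 and 0.96 in LSC GFP- replicates 1 to 3. Here the LSC GFP+ samples included both the highest and the lowest value. The log2 difference was -0.07 (95% confidence interval -0.54 to 0.39, limma, unadjusted p = 0.733). The intervals of Gjb2, Gjb6 and Gjc1 leave room for differences in either direction, which for Gjb2 and Gjb6 reach beyond 0.5 on the log2 scale.

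Gjb5 lies in a cluster of connexin genes on chromosome 4 that includes Gja4, and its probe is in mm9 at chr4:127032053-127032112 on the minus strand. It was well above background in LSC GFP+ replicate 1 only, at a log2 signal of -3.85. In the other 5 samples, where the probe was not well above background, the values were between -6.56 and -5.65. The probe was therefore not tested and no fold is given. All 6 probes are 60 bases long, and no other probe of the array shared a run of 20 bases with any of them.

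Of the 5 connexin and pannexin probes tested, 1 was higher in LSC GFP+ cells at the unadjusted threshold, none was lower and none passed after adjustment. This 1 in 5 stands against 7.90% of all tested probes in either direction, and with 5 probes it rests on Gja1 alone. In the fit blocked on replicate number 2 passed, both higher, against 14.8% of all. The populations did not overlap for 2 of the 5, Gja1 and Panx1, compared with 12.3% of all tested probes in either direction. The median log2 difference of the 5 was 0.07, against -0.004 over all tested probes. Gja1, Panx1 and Gjb6 had positive and Gjb2 and Gjc1 negative differences under each of the scalings tried, although those of Gjb2, Gjb6 and Gjc1 changed sign when single samples were left out.

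The 17 other connexins and pannexins on the array included 11 that were tested. None of them passed the unadjusted threshold in limma, against 7.90% of all tested probes, a share at which few calls would be found among 11 genes. The 6 remaining genes, Gja6, Gja10, Gjd2, Gjd4, Gje1 and Panx3, were not well above background on all 3 arrays of either population. Among the 11, 7 had positive and 4 negative differences, which became 8 and 3 with median scaling or quantile normalisation and 4 and 7 with normexp background correction, and the median was 0.05 on the log2 scale. Differences ranged from -0.62, for Gja4, a connexin of vascular endothelium, to 0.32.

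Gjb1 encodes Cx32, a connexin of secretory epithelia such as liver and pancreas. Its log2 signal was 1.71, 2.25 and 2.69 in LSC GFP+ replicates 1 to 3, and 2.43, 2.91 and 3.1 in LSC GFP- replicates 1 to 3. The ranges overlapped, yet each LSC GFP+ sample lay below the LSC GFP- sample of the same number, by differences of -0.72, -0.66 and -0.41. The log2 difference was -0.60 (95% confidence interval -1.30 to 0.10, limma, unadjusted p = 0.0839, adjusted p = 0.739), and blocked on the replicate number the unadjusted p was 0.00828 (adjusted p = 0.168). In the blocked fit 14.8% of all tested probes passed the unadjusted threshold. Gja4 was above background on 5 of 6 arrays, and its difference of -0.62 had an unadjusted p of 0.0832 in limma.

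The other 9 differences were smaller. Gja3, which neighbours Gjb2, differed by -0.04 (limma, unadjusted p = 0.85). Gjc3, a connexin of myelinating glia, differed by -0.37 (limma, unadjusted p = 0.332). Gjd3 differed by 0.08 and the pannexin gene Panx2 by 0.01. The 2 tested probes of Gja5, a connexin of atrium and endothelium, disagreed in sign, at 0.08 and -0.11.

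**Figure D4:**
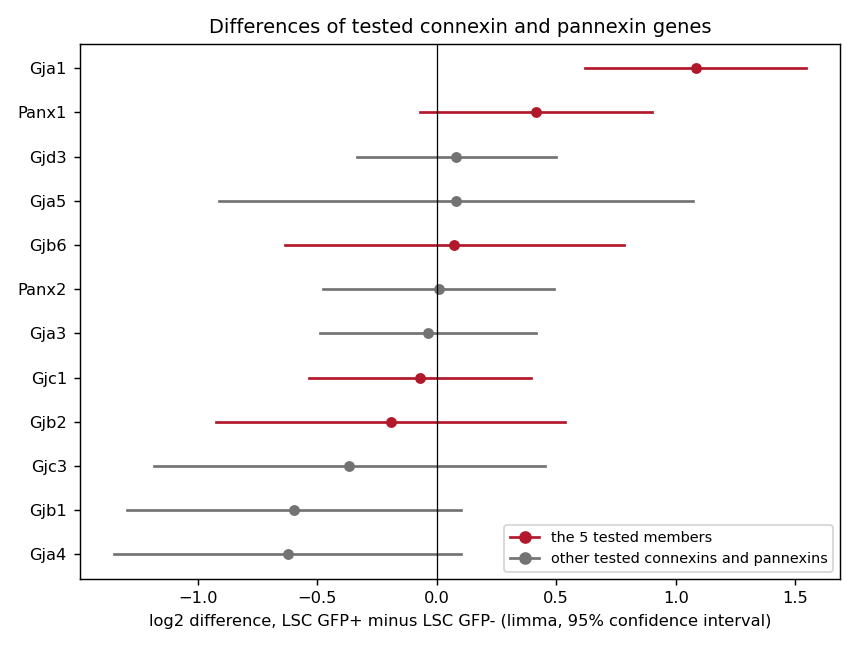
Log2 difference between LSC GFP+ and LSC GFP- cells with the 95% confidence interval from limma (horizontal axis) for 12 tested connexin and pannexin genes (vertical axis), with Gja1, Panx1, Gjb6, Gjc1 and Gjb2 in red. The interval of Gja1 lies wholly above 0 and those of the other 11 genes include 0.

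Proteins that bind connexins or regulate their traffic, turnover and phosphorylation were examined as a list of 16 genes, of which 15 were tested. None was higher and 2 were lower in LSC GFP+ cells at the unadjusted threshold, against 4.53% of all tested probes lower, and neither passed after adjustment. The median difference was 0.05 on the log2 scale. Tjp1, which encodes the scaffold protein ZO-1 that binds Cx43, differed by -0.02.

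Cav1 encodes caveolin-1, the coat protein of caveolae, which associates with connexins. Its log2 signal was 0.87, 1.16 and 1.75 in LSC GFP+ replicates 1 to 3, and 1.97, 1.99 and 2.64 in LSC GFP- replicates 1 to 3. The populations did not overlap, and the mean signal was 1.92-fold higher in LSC GFP- cells (log2 difference -0.94, 95% confidence interval -1.63 to -0.25, limma, unadjusted p = 0.0139, adjusted p = 0.392). Cav1 passed the unadjusted threshold in 15 of 16 alternative settings and missed it in the methods' t-test. Prkca, the kinase PKC-alpha that phosphorylates Cx43, differed by -0.79 (limma, unadjusted p = 0.045, adjusted p = 0.611) and passed in 8 of 16 alternative settings. A second Prkca probe differed by -0.61 (limma, unadjusted p = 0.0331).

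Markers of the basal cells that the LSC gate selects, and of stromal and smooth muscle cells, also differed in this comparison. The gate requires CD49f, and so is drawn to leave out Sca-1+ CD49f- stromal cells. The GFP-high vascular smooth muscle cells of this line carry little or no Sca-1 and CD49f. Col1a1 and Acta2 were well above background on all 6 arrays, and whether stromal or smooth muscle cells remained after the sort was not tested. Of 10 basal epithelial markers, all tested, 6 were higher in LSC GFP+ cells at the unadjusted threshold and none was lower. Over all tested probes 3.38% were higher and 4.53% lower at that threshold. The median log2 difference of the 10 basal markers was 0.61. Their summed signal, as a multiple of the 75th percentile, was 230.6 to 248.4 in LSC GFP+ and 172.9 to 183.3 in LSC GFP- samples. Krt14, the basal keratin, differed by 1.18 on the log2 scale (limma, unadjusted p = 0.000821, adjusted p = 0.135). Of 8 luminal markers 2 were higher, among them the prostate transcription factor Hoxb13 at 0.80, and none was lower, and the luminal keratin Krt8 differed by -0.30 (limma, unadjusted p = 0.307).

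Of 8 smooth muscle markers 6 were tested and all 6 were lower in LSC GFP+ cells at the unadjusted threshold. Over all tested probes 4.53% were lower and 3.38% higher. The median log2 difference of the 6 smooth muscle markers was -1.73. Their summed signal was 6.21 to 10.00 in LSC GFP+ and 19.6 to 37.7 in LSC GFP- samples. Lmod1 and Myocd were not tested. Of 9 stromal markers 5 (Col1a1, Col1a2, Col3a1, Lum and Pdgfra) were lower and 1, the proteoglycan gene Dcn, was higher at that threshold, with a median of -1.22 and a summed signal of 19.8 to 26.1 in LSC GFP+ and 22.0 to 62.4 in LSC GFP- samples. No gene passed the unadjusted threshold among 5 tested endothelial, 7 immune or 6 glial and neuronal markers, and none of the markers in any list passed after adjustment. All 6 glial and neuronal markers nevertheless had negative differences, with a median of -0.98 on the log2 scale. The endothelial markers had 2 positive and 3 negative differences (median -0.25), and the immune markers 3 positive and 4 negative (median -0.03). Blocked on the replicate number, 1 immune marker (Cd52) and 4 glial and neuronal markers (Sox10, Tubb3, Uchl1 and Prph) were lower at the unadjusted threshold. That blocked fit called 14.8% of all tested probes in either direction.

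Gja1 was higher and Cav1 lower in the LSC GFP+ samples, which also had the higher basal and lower smooth muscle sums. Any gene whose populations do not overlap lines up with these sums in the same way, which held for 12.3% of all tested probes in either direction. The match is therefore not separate support for a link. The part of the marker lists in any of these differences was not tested.

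**Figure D5:**
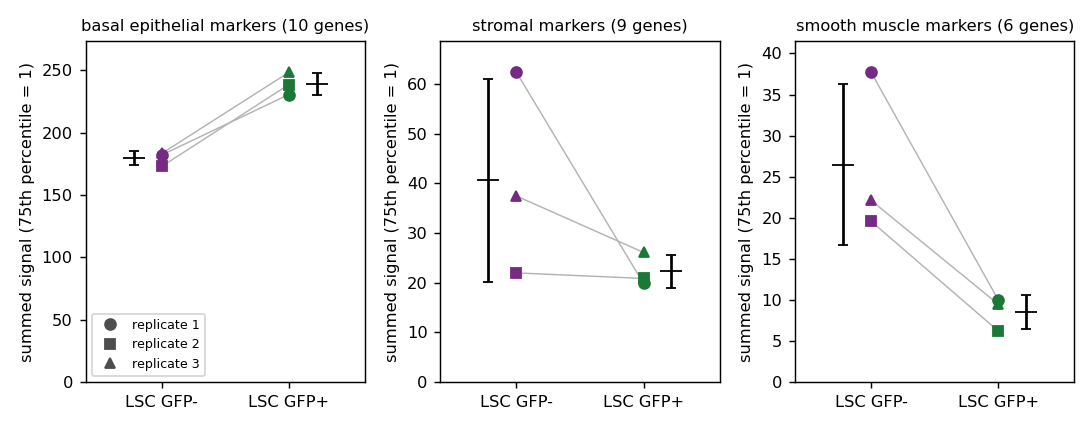
Summed linear signal of the tested basal epithelial, stromal and smooth muscle markers (vertical axes from 0, in multiples of the 75th percentile of the array) in LSC GFP- and LSC GFP+ samples, with grey lines joining samples of the same replicate number and mean ± SD (n = 3) in black. The basal sums of LSC GFP+ samples (230.6 to 248.4) lie above those of LSC GFP- samples (172.9 to 183.3), the smooth muscle sums lie below without overlap, and the stromal sums overlap.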

How the data were processed

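RNA from the sorted cells (LSC GFP+ and LSC GFP-, 3 samples each) was amplified with the Ovation Pico WTA kit, labelled with Cy3 and hybridised to SurePrint G3 Mouse arrays. Per the file headers, Agilent Feature Extraction 11.0.1.1 (10.7.3.1 in the submitters' processing notes) made the deposited processed intensity values, which are on the linear scale, background-subtracted and not normalized between arrays. The deposited table of the whole series held the same intensity values within 0.496% and served as an alternative. Amplification precedes labelling, and the number of arrays limits the precision.

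From these deposited intensity values, log2 was taken and the 75th percentile of the non-control spots of each array was subtracted. Control spots and 123 to 154 outlier spots per array were left out, no spot was saturated, and the kept spots of each probe were averaged. Probes entered the test if they were well above background on the 3 arrays of either population. The comparison used limma 3.58.1 (lmFit, eBayes; two-sided) under R 4.3.3 with Benjamini-Hochberg adjustment over all tested probes. An unadjusted p of 0.05 was used for calls because 1 probe passed after adjustment. With 3 samples against 3, an exact permutation test cannot give a two-sided p below 0.1 and was not used. The test was checked on simulated data in which the noise of each array was independent. That check does not cover the correlation between samples of the same replicate number given below. A gene of several probes was represented by its tested probe of highest mean signal.

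Deviations from the population means correlated at 0.433, 0.277 and 0.668 between samples of the same replicate number. Of the 6 pairs with different numbers, 1 gave 0.223 and the other 5 were negative. Deviations within a population sum to 0, so positive values at the same number push the others down. The negative values are therefore not separate support for pairing. The replicate numbers, which come from the sample titles, were therefore taken as pairing the samples. The main test did not include this pairing, and its p values, intervals and counts are unpaired. The fit blocked on replicate number was an alternative, given where it changed a call.

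Alternatives were normexp background correction, quantile normalization, median scaling, other filters on dim probes, an intensity trend, the mean over probes, the methods' t-test, the replicate block and leaving out each sample. The 6 genes and all gene lists were chosen with earlier results of these data known. Named were all 6 genes, the detected other connexins and pannexins, called partners, defining markers and the 3 genes nearest in signal to each called member. Tjp1 and the called markers outside the defining ones were named after their values were seen. Values of some genes counted in the lists are not reported here. Probe positions are those of the array design in mm9, and promoters are from RefSeq, GRCm38.p6.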

Additional observations from a re-analysis of the deposited data

How the results depend on the processing

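Gja1 kept its direction and its side of the unadjusted threshold in all 16 alternatives, with 0.99 to 1.17 when single samples were left out. Panx1 kept its direction (0.30 to 0.53 with single samples left out) and passed the unadjusted threshold with normexp (0.40, limma, unadjusted p = 0.0487) and with the replicate block (0.42, unadjusted p = 0.0243), which brought the number of member genes called from 1 to 2 under normexp and to 2 under the block, and left it at 1 without any single sample. The sign of Gjb2 turned without LSC GFP+ replicate 1 (0.12) and without LSC GFP- replicate 3 (0.004), within a range of -0.37 to 0.12. That of Gjb6 turned without LSC GFP- replicate 2 (-0.16) and without LSC GFP+ replicate 3 (-0.18), within -0.18 to 0.26. That of Gjc1 turned without LSC GFP+ replicate 3 (0.034), within -0.19 to 0.03. Of the other connexins and pannexins, 1 was called with quantile normalization and 1 with the replicate block, and 0 to 2 with single samples left out, namely Gjb1 without LSC GFP- replicate 1, and Gjb1 and Gja4 without LSC GFP+ replicate 3. Of the partners, 1 remained with quantile normalization, median scaling or no filter on dim probes, Cav1 in each case, and 0 with the methods' t-test. With single samples left out 1 to 2 remained, and it was 1, Cav1, without LSC GFP+ replicates 1 or 3 or LSC GFP- replicates 1 or 2. Over all probes the replicate block called 5479 against 2925, and single samples left out gave 2077 to 4049, the highest without LSC GFP+ replicate 1. After adjustment no alternative called a member gene, and 0 to 3 probes of the array passed. The block changed no other call of a member. The cause of these changes was not tested. Where a sample was left out, the spread was pooled over the remaining 5. Dim signal limits Gjb5, which only the fit without a filter tested.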
